A study of Mus musculus with 75 samples.

Results

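Germ cells made in vitro that lack STRA8 were followed from culture day 3 to culture day 9. Of the 75 libraries of the series, 8 carry the label of a Stra8 knockout line (genotype Stra8-/-) at one of these ends: 4 are PGC-like cells of culture day 9 in the condition labelled RB, and 4 are PGC-like cells of culture day 3 in the condition labelled CT. They were chosen by these labels alone and paired within line and replicate. The knockout lines are SK1, with 2 libraries per day, and SK2 and SK3, with 1 library per day each. The 4 pairs thus stand for 3 lines, and the labels do not say whether the replicates of SK1 were separate cultures. Wherever 4 knockout values are listed, their order is SK1 replicate 1, SK1 replicate 2, SK2 and SK3. The wild type of the same experiment gave 2 libraries at each of these days.

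PGC-like cells are mouse embryonic stem cells turned, by way of epiblast-like cells and an aggregate culture with BMP4, into cells that resemble primordial germ cells (PGCs), the embryonic precursors of eggs and sperm. Both genotypes were on a DBA/2 and C57BL/6 background in equal parts and carried the reporter transgenes Prdm1-mVenusTg/0 and Dppa3-ECFPTg/0. All were expanded on mitomycin C-treated m220 feeder cells with Forskolin and Rolipram and re-sorted by a reporter before RNA extraction. Agents meant to induce a female fate were given from day 3 on, and the labels do not say which condition received which. The labels do not spell out CT and RB; the series title names bone morphogenetic protein (BMP) and retinoic acid. The knockout libraries labelled CT are those of day 3 alone, so that in the knockout the 6 further days in culture and the condition RB cannot be told apart. A line on a 129S1 and C57BL/6 background, with CT and RB libraries at day 9, is set beside it at the end. The labels do not say which part of Stra8 was deleted.

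STRA8 is a nuclear protein that fetal germ cells of the ovary switch on when retinoic acid signalling reaches a competent cell. Together with its partner MEIOSIN it binds the promoters of meiotic genes and raises their transcription, and without it fetal germ cells of the mouse fail to condense and pair their chromosomes. Retinoic acid also acts on genes outside meiosis through its nuclear receptors, and BMP acts through SMAD transcription factors, whose best known targets are the Id genes. REC8, a cohesin subunit of meiotic chromosomes, is known in mouse as a gene that retinoic acid can switch on without STRA8.

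The libraries are 3′-end RNA-seq (SC3-seq), in which reads pile up at the end of a transcript. Values are RPM, the reads of a gene scaled to the size of the library. The depth deduced from the smallest steps in the values was 1.29 to 6.26 M reads in the 8 knockout libraries, with a median of 2.35 M reads, and 3 reads correspond to 0.479 to 2.318 RPM. Between libraries, the correlation across genes of log2(RPM + 1) was 0.957 to 0.971 among the 4 day 9 libraries, 0.977 to 0.985 among the 4 day 3 libraries, and 0.803 to 0.827 between the days. Spike-in RNA was present in some libraries and not in others: in the SK1 replicate 1 pair at both days, in SK2 at day 3 but not at day 9, and in neither library of SK1 replicate 2 and SK3.

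A large change in expression took place without STRA8: retinoic acid targets, Hox genes, BMP targets and many germline genes rose, part of the meiotic genes rose less than in wild type, and pluripotency and glycolysis genes fell. With a limma model on log2(RPM + 1), 4147 of 12206 genes tested, or 34.0%, were called as different between knockout day 9 and knockout day 3, which needed at least a 2-fold change and, after Benjamini-Hochberg adjustment, a p below 0.05. Of these, 3125 (25.6% of the genes tested) were higher at day 9 and 1022 (8.37%) were lower. In all 4 pairs 4059 of the 4147 moved the same way, which is largely set by calling them on these same pairs. The median change over all genes tested was 0.27 on the log2 scale, and the count depends on the scaling. After median centring the calls were 2278 higher and 1788 lower, and after quantile normalization 1926 higher and 1918 lower. A gene was tested when at least 2 of the 24 libraries of the Stra8 experiment reached 5 RPM, so a gene that reached it at day 9 alone was bound to be higher there, and counts of risers among the tested members of a list are descriptions. In wild type, the same interval gave 5370 genes (44.0%), of which 3419 were higher (28.0%) and 1951 lower (16.0%).

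The difference between the genotypes was tested as the change in the knockout less the change in wild type. It was called for 1921 genes (15.7%), of which 1123 (9.20%) had a change that was higher in the knockout and 798 (6.54%) one that was lower. Without wild-type replicate 2 the total was 1024. After median centring these calls were 898 and 987. Of the 3125 genes higher in the knockout at day 9, the rise was called larger in the knockout for 444 (14.2%), smaller in the knockout for 319 (10.2%), and no difference was called for 2362 (75.6%). The 2265 genes called higher in both genotypes were 72.5% of the knockout's risers and 66.2% of those of wild type. Among the genes that fell, 852 were called in both, which is 83.4% of the 1022 of the knockout and 43.7% of the 1951 of wild type.

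**Figure D1:**
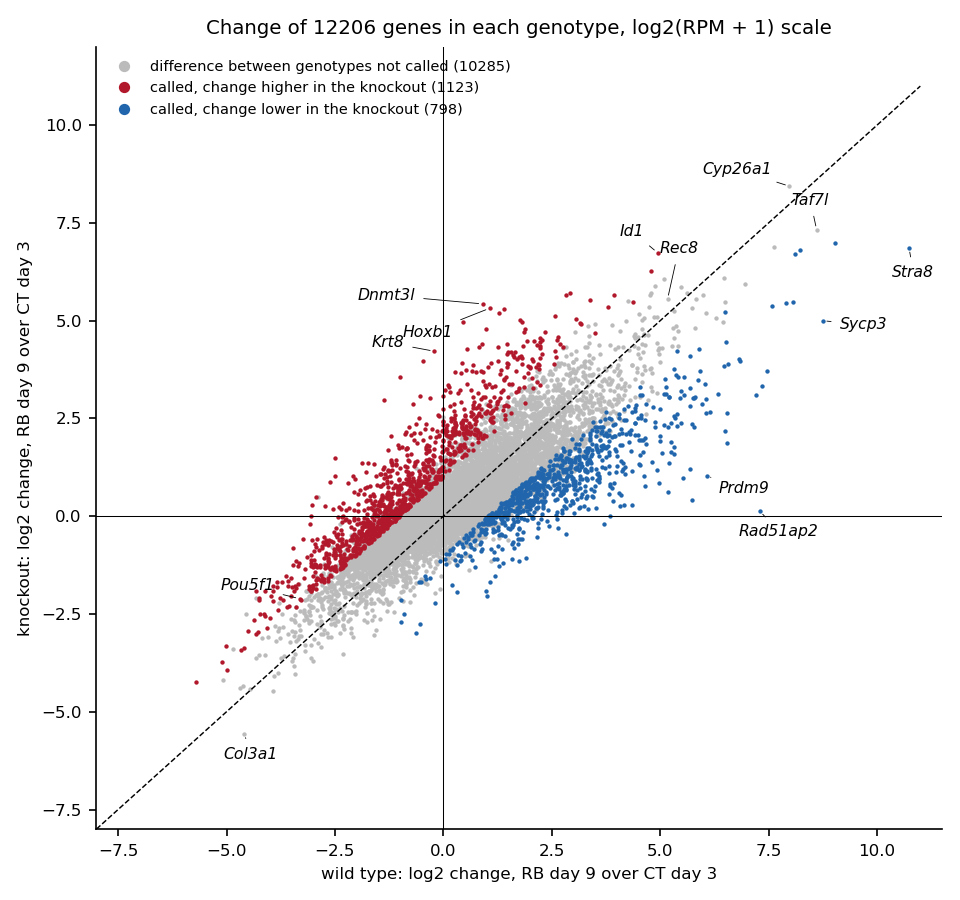
Each point is 1 of 12206 genes; the vertical axis is its log2 change from CT day 3 to RB day 9 in the Stra8 knockout (4 pairs) and the horizontal axis the same change in wild type (2 pairs), both on the log2(RPM + 1) scale, with the dashed line marking equal change. Genes whose change differed between the genotypes are red (higher in the knockout, 1123) or blue (lower in the knockout, 798); Cyp26a1 and Rec8 lie with the 10285 grey genes, while Rad51ap2 at 0.13 in the knockout and 7.30 in wild type lies far under the line.

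Transcripts of the Stra8 gene itself still came on. The 3′ reads of Stra8 were at 105, 122, 77.9 and 483 RPM in the knockout libraries of day 9, against 0.765, 0.326, 0.16 and 0 RPM in those of day 3. In wild type it stood at 1813 and 1717 RPM at day 9 and at 0.064 and 0 RPM at day 3. The knockout libraries of the 2 days did not overlap, and neither did the day 9 libraries of the 2 genotypes, with SK3 the highest of the knockout lines. The log2 change was 6.86 in the knockout (SE 0.34, adjusted p = 9.9e-18) and 10.74 in wild type, and the difference of -3.88 was called (adjusted p = 8.2e-06). Since the deleted part is not given and reads of the 3′ end say nothing about the protein, these levels do not check the genotype.

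Among regulators of meiotic entry, all 7 of 7 genes tested rose in the knockout, where 25.6% of all genes rose. The median log2 change was 4.98 in the knockout and 5.17 in wild type, but the median of the differences gene by gene was -1.31. The change was called lower in the knockout for 3 of the 7, as for 6.54% of all genes. Rec8 was at 522, 382, 444 and 381 RPM in the knockout at day 9, against 7.65, 6.52, 11 and 7.64 RPM at day 3. No library of one day reached the level of any library of the other, and the change of 5.55 (SE 0.14, adjusted p = 3.1e-25) stood beside 5.17 in wild type, a difference of 0.38 that was not called (adjusted p = 0.28). Gm1564, named Meioc by RefSeq and needed in mouse to hold germ cells in meiotic prophase, averaged 133 ± 41.6 RPM in the knockout at day 9 and 0.161 ± 0.186 RPM at day 3 (SD, n = 4 each), a change of 6.81; its rise was called larger in wild type (difference -1.42), and without wild-type replicate 2 the difference was -1.26 and not called. Zfp541, a zinc finger protein of meiotic prophase, rose by 4.98 and Mael, a piRNA pathway protein, by 3.31, and for neither was a difference between the genotypes called.

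The chromosome axis and the synaptonemal complex, the protein structure that ties paired chromosomes together, rose in the knockout, in most members less than in wild type. Of 13 genes tested, 12 rose and none fell, with a median log2 change of 3.49 in the knockout and 5.17 in wild type. The change was called lower in the knockout than in wild type for 11 of the 13, as for 6.54% of all genes. The exceptions were Rec8 and Hormad1, for which no difference was called, and Syce2, a central element protein, was the member that did not pass the test in the knockout (log2 change 0.08).

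Sycp3, the lateral element protein, was at 232, 212, 166 and 195 RPM in the knockout at day 9, against 9.56, 5.22, 7.51 and 1.76 RPM at day 3. Wild type was at 1455 and 1603 RPM at day 9. All knockout libraries of day 9 lay above all of day 3 and below both of wild type. The change was 5.00 in the knockout (SE 0.25, adjusted p = 1.3e-17) and 8.75 in wild type, a difference of -3.74 (SE 0.43, adjusted p = 9.1e-08). Sycp1, which forms the transverse filaments between the axes, was at 364, 422, 581 and 387 RPM in the knockout at day 9 and at 4.97, 1.63, 2.24 and 4.70 RPM at day 3. Wild type had 744 and 1240.3 RPM at day 9. Its difference between the genotypes was -1.4, and the day 9 libraries of the knockout lay below both of wild type. Sycp2, the partner of SYCP3 in the lateral element, changed by 5.48 in the knockout against 8.06 in wild type, and Tex12, of the central element, by 5.37 against 7.57. Without wild-type replicate 2 the differences of Sycp1 and Sycp2 were -0.97 and -1.45 and no longer called. Hormad1, an axis protein that watches over pairing, had 379, 402, 399 and 404 RPM in the knockout at day 9 and 29.8, 15.6, 19.3 and 17.3 RPM at day 3, a change of 4.25 beside 4.95 in wild type. The 4 day 9 libraries of Hormad1 were nearly level and lay below both wild-type libraries, at 826 and 951 RPM.

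**Figure D2:**
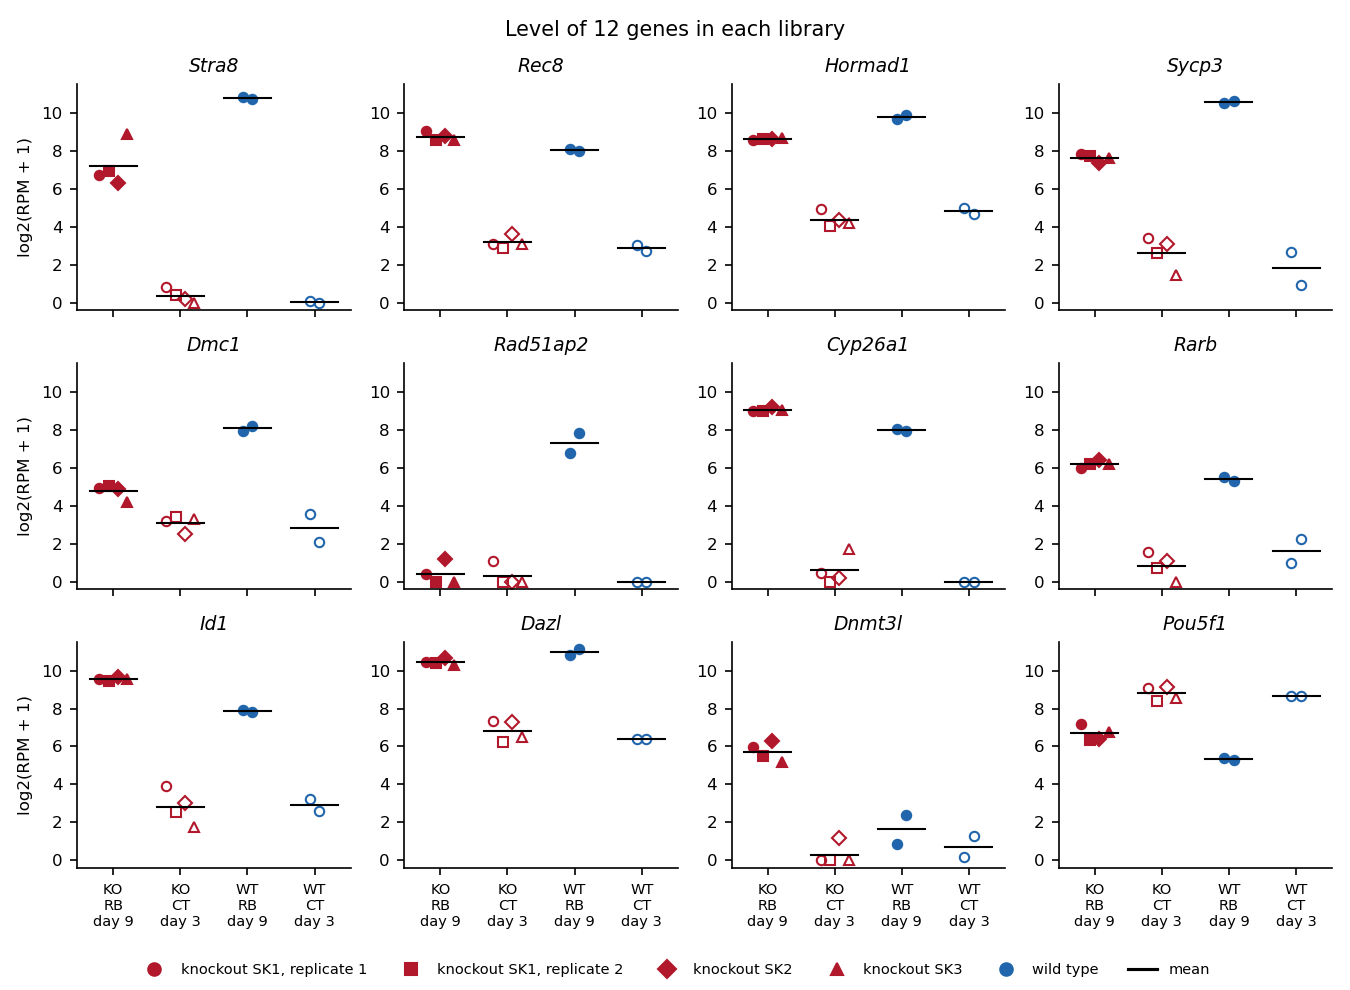
Each panel shows 1 gene and each symbol 1 library, as log2(RPM + 1), for the knockout (red, with a symbol per line and replicate) and wild type (blue) at RB day 9 (filled) and CT day 3 (open); black lines are means. Rec8, Hormad1, Cyp26a1, Rarb, Id1 and Dazl rise in every knockout library, Sycp3 and Dmc1 stay under wild type at day 9, Rad51ap2 stays near 0 in the knockout, and Dnmt3l rises in the knockout to 34.8 to 75.9 RPM.

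Genes that make and repair the DNA breaks of meiosis had the smallest medians of the meiotic lists in the knockout. Break formation and telomere attachment had 9 of 12 genes higher and none lower, with a median of 1.42 in the knockout and 4.24 in wild type, and strand exchange and crossover had 10 of 20 higher, with medians of 1.05 and 4.13. With median centring 6 of the 12 and 9 of the 20 were called higher, with medians of 1.04 and 0.67, and with quantile normalization 5 and 9, with medians of 0.84 and 0.69. Before such scaling, 25.6% of all genes were higher in the knockout and 8.37% lower. The change was called lower in the knockout than in wild type for 8 of the first list and 11 of the second, as for 6.54% of all genes. Among the risers, 3 of the first list and 2 of the second had no difference called. Rad51ap2, a gene of meiotic recombination, was listed at 0.324, 0, 1.31 and 0 RPM in the knockout at day 9 and 1.15, 0, 0 and 0 RPM at day 3, where wild type had 109 and 225 RPM at day 9. Its change of 0.13 in the knockout was not called, and the difference from wild type, -7.17 (SE 0.62, adjusted p = 3.9e-10), was the largest in that direction among the genes named by the rule. Prdm9, the histone methyltransferase that places the breaks, was at 3.24, 3.83, 2.62 and 2.32 RPM in the knockout at day 9, at 0.765, 0.978, 0.479 and 1.76 RPM at day 3, and at 73.9 and 71.2 RPM in wild type at day 9. Its change in the knockout, 1.03, just passed the test and was -0.15 with quantile normalization.

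Dmc1, the recombinase that acts in meiosis alone, had 29.2, 31.6, 28.8 and 17 RPM in the knockout at day 9, against 8.03, 9.45, 4.79 and 8.81 RPM at day 3. Wild type had 246 and 296 RPM at day 9. The knockout days did not overlap, and the change was 1.65 in the knockout and 5.25 in wild type, a difference of -3.59 (adjusted p = 4.9e-07). Larger changes in the knockout were found for Rnf212, which marks future crossovers (3.60, wild type 5.36), Tex15, needed to load the recombinases (3.29, wild type 5.70), and Tex11, an X-linked crossover gene (3.10, wild type 4.16). For Tex11 no difference between the genotypes was called. Hfm1, a helicase of crossover formation, rose by 2.04 in the knockout and 5.00 in wild type, a difference of -2.96. Msh5, a partner of MSH4 in crossover formation, did not pass the test in the knockout (0.54) and changed by 4.10 in wild type. Besides Tex11, no difference was called for Psmc3ip, Mnd1, Trip13, Rad51c, Brca1, Fancd2 and Brip1, of which the last 4 also serve DNA repair in dividing cells; of these 7, Mnd1 rose in the knockout (1.28, but 0.90 and not called with median centring) and the others were not called.

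The cyclins and kinase partners of meiosis gave the same picture. All 6 of 6 genes tested rose in the knockout, where 25.6% of all genes did, with a median of 2.10 against 4.89 in wild type. For 4 the rise was called smaller in the knockout, where 6.54% of all genes had a change called lower. Spdya, which activates CDK2 at telomeres, averaged 10.1 ± 2.15 RPM in the knockout at day 9 and 0.0956 ± 0.191 RPM at day 3, while wild type at day 9 was at 174 and 224 RPM. The difference from wild type was -4.01. Cdk2 itself and Cpeb1, a regulator of mRNA translation in germ cells, rose by 1.46 and 1.54 in the knockout and 1.6 and 2.26 in wild type, with no difference called.

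The promoters of some genes whose change was called lower in the knockout than in wild type, and of some for which no difference was called, are shown so that their sequences can be read beside the values. The windows are the 250 bases before the RefSeq transcript start (GRCm38.p6), read 5′ to 3′ on the strand of the gene. Prdm9 and Hormad1 have 2 such windows each. For these, the window with more matches to the marked letters was taken, or on a tie the one with the lower coordinate. Motifs were searched on both strands, so capitals can show the reverse complement. In the first 3 windows, of genes whose change was called lower in the knockout, capitals mark the letters CNCCTCAG of the motif reported for STRA8 and MEIOSIN in mouse germ cells and, for Msh5 and Prdm9, also TTCCCGC, a site of E2F factors such as E2F6.
Hfm1, chr5:106925891-106926140, minus strand: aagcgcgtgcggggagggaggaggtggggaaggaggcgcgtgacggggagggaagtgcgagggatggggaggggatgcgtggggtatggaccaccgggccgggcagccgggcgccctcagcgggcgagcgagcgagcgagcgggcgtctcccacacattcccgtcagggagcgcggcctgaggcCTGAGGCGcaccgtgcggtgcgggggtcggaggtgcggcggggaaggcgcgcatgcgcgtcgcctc
Msh5, chr17:35046623-35046872, minus strand: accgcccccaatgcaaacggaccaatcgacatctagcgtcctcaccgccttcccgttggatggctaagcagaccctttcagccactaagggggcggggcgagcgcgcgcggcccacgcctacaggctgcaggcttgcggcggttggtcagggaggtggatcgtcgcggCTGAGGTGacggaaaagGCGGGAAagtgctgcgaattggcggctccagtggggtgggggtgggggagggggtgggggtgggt
Prdm9, chr17:15564355-15564604, minus strand: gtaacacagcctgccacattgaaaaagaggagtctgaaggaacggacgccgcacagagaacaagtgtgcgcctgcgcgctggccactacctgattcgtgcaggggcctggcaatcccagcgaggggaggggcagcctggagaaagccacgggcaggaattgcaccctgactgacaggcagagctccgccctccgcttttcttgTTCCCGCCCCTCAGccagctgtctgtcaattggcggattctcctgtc
In the next 3 windows, of Hormad1 and Ddx4, which showed no called difference, and of Sycp3, whose rise was smaller in the knockout, capitals mark the E-box CACGTG, a site of factors such as MAX and MGA, and TTCCCGC.
Hormad1, chr3:95559427-95559676, plus strand: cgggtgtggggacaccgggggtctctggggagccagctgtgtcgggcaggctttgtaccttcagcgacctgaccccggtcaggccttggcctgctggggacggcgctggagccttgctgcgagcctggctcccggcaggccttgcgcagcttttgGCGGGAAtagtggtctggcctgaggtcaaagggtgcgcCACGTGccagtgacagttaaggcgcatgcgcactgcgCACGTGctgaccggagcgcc
Ddx4, chr13:112652311-112652560, minus strand: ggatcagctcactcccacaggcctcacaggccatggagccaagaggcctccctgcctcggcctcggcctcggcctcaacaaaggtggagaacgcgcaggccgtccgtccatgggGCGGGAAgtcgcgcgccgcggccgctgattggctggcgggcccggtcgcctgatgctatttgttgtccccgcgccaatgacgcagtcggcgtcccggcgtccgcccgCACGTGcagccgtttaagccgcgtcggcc
Sycp3, chr10:88459337-88459586, plus strand: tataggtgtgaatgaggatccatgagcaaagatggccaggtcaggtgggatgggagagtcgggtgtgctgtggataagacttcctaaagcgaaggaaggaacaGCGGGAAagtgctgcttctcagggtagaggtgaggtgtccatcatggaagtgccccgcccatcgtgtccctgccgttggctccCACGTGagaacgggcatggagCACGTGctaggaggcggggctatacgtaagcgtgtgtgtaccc
In the window of Stra8, capitals mark AGGTCA, the half-site of nuclear receptors such as the retinoic acid receptors, and GGCGCC, a GC-rich site of SMAD proteins.
Stra8, chr6:34920698-34920947, plus strand: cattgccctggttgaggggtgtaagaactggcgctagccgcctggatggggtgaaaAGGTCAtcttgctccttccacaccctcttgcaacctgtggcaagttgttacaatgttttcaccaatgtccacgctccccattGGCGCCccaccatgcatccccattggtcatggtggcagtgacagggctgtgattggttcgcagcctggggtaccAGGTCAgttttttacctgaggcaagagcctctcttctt

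The STRA8-associated letters lie 66 to 59 bases before the start of Hfm1, 82 to 75 before that of Msh5 and 41 to 34 before that of Prdm9, where they overlap the E2F site at 47 to 41 by 1 base. In the windows shown, Sycp3 and Hormad1 each hold 2 E-boxes and 1 E2F site, and Ddx4 holds 1 of each. Counted over windows of 300 bases (250 before and 50 after the start) on both strands, CNCCTCAG occurred in 9.38% of 12188 windows of all genes tested. It occurred in 18% of 316 windows of genes higher in the knockout whose rise was called smaller there, in 9.85% of 2478 windows of risers with no difference called, and in 6.42% of 452 windows of risers whose rise was called larger in the knockout. Among genes that rose in wild type, were not called in the knockout and had a called difference, it occurred in 17.4% of 402 windows. In the 250 bases before the start alone, these shares were 11.1%, 7.75%, 5.53% and 11.7%, with 7.38% over all genes. The E-box CACGTG occurred in 9.18%, 9.52%, 11.1% and 9.2% of the 300-base windows of the same 4 sets, with 10.3% over all genes. Over all genes, AGGTCA occurred in 12.3% and GGCGCC in 21.8% of the windows. The E2F letters TTCCCGC occurred in 13.3%, 8.64%, 5.97% and 11.4% of the same 300-base windows, with 8.69% over all genes. No window held 2 AGGTCA half-sites in direct repeat with 5 bases between them. These shares describe letters, not binding, and no test was made of them.

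Genes known to answer retinoic acid rose without STRA8. Of 15 tested, 13 rose and none fell, and the median change was 4.43 in the knockout and 2.30 in wild type. The change was called higher in the knockout than in wild type for 8 of them and lower for none, where 9.20% and 6.54% of all genes were so called. Cyp26a1, the enzyme that degrades retinoic acid and one of its most direct targets, was at 503, 499.5, 591 and 522 RPM in the knockout at day 9, against 0.383, 0, 0.16 and 2.35 RPM at day 3. All 4 day 9 libraries were close to each other and far above day 3, and the change of 8.44 (SE 0.24, adjusted p = 4.3e-24) was the largest rise among the genes the rule names. In wild type Cyp26a1 had 258 and 245 RPM at day 9 and was listed at 0 at day 3.

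Rarb, a retinoic acid receptor that is itself a target, had 62.9, 72.2, 83.7 and 71.9 RPM in the knockout at day 9 and 1.91, 0.652, 1.12 and 0 RPM at day 3, a change of 5.36 (adjusted p = 3.2e-17) that was called larger than the 3.80 of wild type; without wild-type replicate 2 the difference was 0.82, and without SK3 it was 1.28, and neither was called. Stra6, the membrane receptor for retinol bound to its carrier, was listed at 0 in all 4 knockout libraries of day 3 and stood at 60, 41.6, 50.4 and 47.1 RPM at day 9. In wild type it had 10.9 and 3.75 RPM at day 9. Cyp26b1, the paralog that keeps retinoic acid away from germ cells of the fetal testis, was also listed at 0 at day 3 and stood at 58.7, 49.3, 73.3 and 34 RPM at day 9. Crabp1 and Nrip1 were the 2 members that did not pass the test, with changes of 0.65 and 0.45. Of the retinoid receptors and enzymes, 4 of 10 rose and none fell, where 25.6% and 8.37% of all genes did. The risers were Rbp4, the carrier of retinol (3.44), the receptor Rara (2.84), Rdh10, which makes retinaldehyde (1.96), and the partner receptor Rxra (1.91). The rise of Rara was larger in the knockout (1.79, but 1.22 and not called without wild-type replicate 1) and that of Rdh10 was smaller (-1.65, but -1.04 and not called without wild-type replicate 2). With quantile normalization 2 of the 10 were called lower.

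Hox genes, which give cells a place along the body axis and of which the early 3′ members answer retinoic acid, rose in most of the members tested. Of 28 listed, 14 reached the level for testing; of these 13 rose and none fell, where 25.6% and 8.37% of all genes did, with a median of 3.14 in the knockout and 1.85 in wild type, and 6 had a change called higher in the knockout. Of all genes, 9.20% had a change called higher in the knockout than in wild type. With quantile normalization the Hox calls were 13 higher and 1 lower. Hoxb1 was listed at 0 in every knockout library of day 3 and had 43.5, 32.5, 55.6 and 29.4 RPM at day 9, against 0.839 and 1.4 RPM in wild type at day 9. Every knockout library of day 9 lay above both wild-type libraries of day 9. Hoxa5, Hoxa4 and Hoxb5 rose by 4.36, 4.04 and 4.29, and Hoxc8 was the member that did not pass the test (-0.01).

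Targets of BMP signalling rose too. Of 13 tested, 9 rose and 1 fell, where 25.6% and 8.37% of all genes did. The median was 1.83 in the knockout and 1.34 in wild type, and 3 had a change called higher in the knockout, as had 9.20% of all genes. Id1, an inhibitor of differentiation factors and the best known target, was at 748, 695, 803 and 752 RPM in the knockout at day 9, against 14.2, 4.89, 7.03 and 2.35 RPM at day 3. The libraries of day 9 differed little, and the change was 6.74 (SE 0.19, adjusted p = 3.3e-24), with 4.94 in wild type and a difference of 1.80 (adjusted p = 1.0e-04). Id2 rose by 4.38, Zfp503 by 4.06 and Atoh8 by 3.84, and Smad9, listed at 0 at day 3, had 29.2, 18.2, 29.4 and 20.1 RPM at day 9. The member that fell was Hey1, also known as a target of Notch, at 7.20 to 15.3 RPM in the knockout at day 9, against 144 to 181 RPM at day 3; with median centring and with quantile normalization 2 members were called lower. The BMP receptors Bmpr2, Bmpr1a and Acvr1 and the activin receptor Acvr2a rose by 1.71, 1.46, 1.41 and 1.07, and the other 4 of 8 receptors and Smads tested were not called. With quantile normalization Acvr1 and Acvr2a were at 0.96 and 0.49 and not called; Acvr2a also lost its call with median centring (0.70) and without SK1 replicate 2 (0.95).

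**Figure D3:**
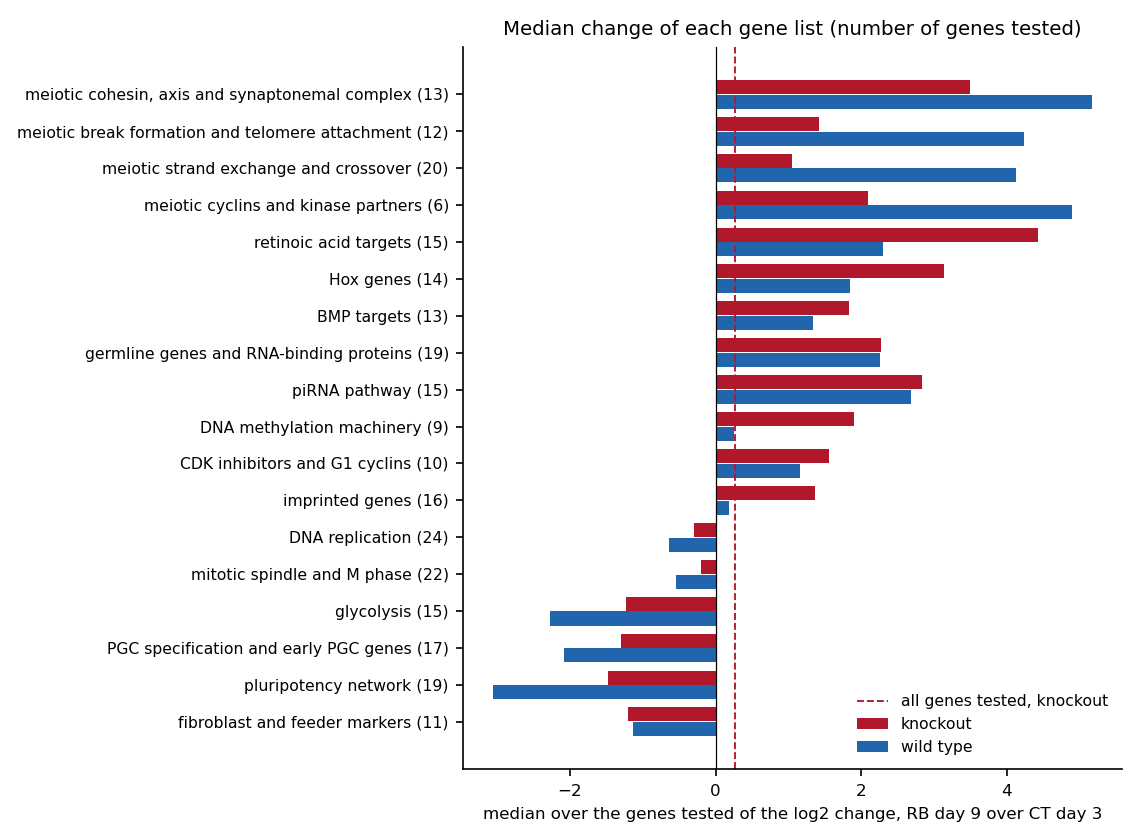
Bars give, for 18 gene lists, the median over the genes tested of the log2 change from CT day 3 to RB day 9 on the log2(RPM + 1) scale, in the knockout (red) and in wild type (blue); the dashed line is the knockout's median over all 12206 genes, 0.27. The bars of the axis, break and strand exchange lists are shorter in the knockout than in wild type, those of retinoic acid targets and Hox genes longer, and that of pluripotency genes reaches less far down (-1.47 in the knockout, -3.05 in wild type).

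Genes of the germline that are not part of the meiotic machinery also rose in the knockout. Of 19 germline genes and RNA-binding proteins tested, 15 rose and 1 fell in the knockout, with a median of 2.27 against 2.26 in wild type, and the change was called higher in the knockout for 1 member and lower for 3, where 9.20% and 6.54% of all genes were so called. Dazl, an RNA-binding protein that licenses germ cells for meiosis, was at 1421, 1351, 1638 and 1266 RPM in the knockout at day 9 and 159, 74, 154 and 89.9 RPM at day 3. Wild type had 1831 and 2263 RPM at day 9. The change was 3.63 in the knockout (SE 0.11, adjusted p = 3.3e-23) and 4.58 in wild type. The difference of -0.95 was under the 2-fold limit and so was not called, but all 4 knockout libraries of day 9 lay below both of wild type. Ddx4, the germ cell RNA helicase also called Vasa, rose by 2.84 in the knockout and 3.61 in wild type.

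Taf7l, an X-linked germ cell version of a TFIID subunit, had 350.4, 285, 314 and 253 RPM in the knockout at day 9, against 0.383, 3.26, 1.12 and 0 RPM at day 3. Tex101, a surface protein of germ cells, had 235, 117, 185 and 125 RPM at day 9 against 0.383, 0.326, 0.319 and 0 RPM at day 3. The changes were 7.32 and 7.0, and for Tex101 the rise was smaller than in wild type (-2.03). Both are among the named largest rises, whose selection required no overlap between the days. Slc25a31, a germ cell ADP/ATP carrier, rose by 4.23 and Tex19.2 by 3.85, the second with a close paralog, Tex19.1, with which it may share reads. Dnd1, which protects PGC transcripts, was the member that fell (-2.40).

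In the piRNA pathway, which silences transposons, 12 of 15 genes tested rose and none fell, with a median of 2.84 in the knockout and 2.68 in wild type, and the change was called lower than in wild type for 2 genes. Of all genes, 25.6% rose and 8.37% fell in the knockout, and 6.54% had a change called lower than in wild type. Under either other scaling, 11 of the 15 were called higher and 1 lower. Piwil4, a PIWI protein known from fetal male germ cells, was at 71.7, 68.9, 78.5 and 70.3 RPM in the knockout at day 9 and at 0.765, 0, 0.639 and 0.588 RPM at day 3, with 36.9 and 18.3 RPM in wild type at day 9. Its change was 5.65 (adjusted p = 3.7e-17). Gtsf1, Tdrd1 and Mov10l1 rose by 4.86, 3.49 and 3.37. Of 20 oocyte genes listed, 15 did not reach the level for testing. Of the other 5, 4 rose, among them Figla, a factor of the primordial follicle (3.76), and Sohlh2 (2.63). Sohlh1, the partner of SOHLH2, was listed at 0 in the knockout at day 3 and had 42.2, 33, 47.1 and 33.2 RPM at day 9, against 0.839 and 2.81 RPM in wild type at day 9.

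Genes of the DNA methylation machinery rose in part, and the de novo methyltransferases Dnmt3a and Dnmt3b and their cofactor Dnmt3l rose further in the knockout than in wild type. Of 9 tested, 5 rose and 1 fell, where 25.6% and 8.37% of all genes did, with a median of 1.90 in the knockout and 0.26 in wild type. The change of 4 was called higher in the knockout, as for 9.20% of all genes, in 3 as a larger rise and in Tet1 as a smaller fall. Dnmt3l, the cofactor of de novo methylation that male germ cells use before birth, was at 61.3, 44.5, 75.9 and 34.8 RPM in the knockout at day 9, against 0, 0, 1.28 and 0 RPM at day 3. Wild type had 0.839 and 4.21 RPM at day 9. The change was 5.43 in the knockout (SE 0.38, adjusted p = 5.5e-14) and 0.91 in wild type, a difference of 4.52 (adjusted p = 4.1e-06). The methyltransferases Dnmt3a and Dnmt3b rose by 1.90 and 2.2, with 0.26 and 0.78 in wild type, and Uhrf1, which brings DNMT1 to replicated DNA, rose by 2.82 with no difference called (0.17). Tet3, an oxidase of methylcytosine, rose by 2.56, and Tet1 was the member that fell (-1.74 in the knockout, -3.36 in wild type).

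Of the male germ cell list, 6 of 9 genes rose and 1 fell in the knockout, among the risers Nxf2, an X-linked RNA export factor (5.48), and Ctcfl, a germ cell paralog of CTCF (3.15). Nanos2, the factor best known for setting the male fate, did not reach the level for testing. Members of this list are shared with those on piRNA and methylation, so its count is no separate result.

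Most pluripotency genes fell in the knockout, and most fell less far than in wild type. Of 19 tested, 14 fell and 3 rose, with a median of -1.47 in the knockout and -3.05 in wild type; over all genes 8.37% fell. The change was called higher in the knockout, in most as a smaller fall, for 14 of 19, as for 9.20% of all genes, and lower for none. Pou5f1, the POU factor OCT4, was at 145, 81.3, 84.4 and 108 RPM in the knockout at day 9, against 543, 339, 562 and 368 RPM at day 3. Wild type was at 40.3 and 38.4 RPM at day 9. The days did not overlap in the knockout, and the change was -2.11 (SE 0.13, adjusted p = 3.8e-15) beside -3.31 in wild type, a difference of 1.21 (adjusted p = 1.6e-04). Tdh, the threonine dehydrogenase of embryonic stem cells, fell to 50.3, 62.7, 52.3 and 68.8 RPM in the knockout at day 9, against 497, 409, 533 and 468 RPM at day 3. Tcl1 and Sox15 fell by 2.86 and 2.41 on the log2 scale. The 3 that rose were Tbx3 (4.36), Klf4 (1.72) and Lin28a (1.44), of which Tbx3 and Lin28a rose further than in wild type. Without wild-type replicate 2 these differences were 2.23 and 2.18 and not called, without replicate 1 that of Tbx3 was 2.00 and not called, and with quantile normalization the rise of Lin28a was 0.70.

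Genes of PGC specification moved the same way, with 10 of 17 lower and none higher, where 8.37% and 25.6% of all genes were. The medians were -1.30 in the knockout and -2.08 in wild type. The change was called higher in the knockout for 9 of the 17, as for 9.20% of all genes. Tfap2c, a PGC transcription factor, was at 30.2, 30.6, 24.9 and 25.5 RPM in the knockout at day 9 and 155, 157, 183 and 155 RPM at day 3, with 9.23 and 7.96 RPM in wild type at day 9. Dppa3, also called Stella and the gene behind one of the reporters, fell by 1.99 on the log2 scale, Ifitm3, a membrane protein of early PGCs, by 1.91, and Prdm14 by 1.87. Of the Nodal pathway, Tdgf1, the co-receptor also called Cripto, and Lefty2, its feedback inhibitor, fell (-3.31 and -2.47). Of the 9 tested, 1 rose and 6 were not called, and 4 had a change called higher in the knockout than in wild type. With median centring and with quantile normalization, 5 and 6 of the 9 were called lower.

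The largest rises outside these lists, by the rule for named genes, were of mixed kind. Tgfb1i1, a focal adhesion protein also called HIC5, had 124, 74.2, 98.1 and 71.9 RPM in the knockout at day 9 and 0, 0.326, 0.479 and 0 RPM at day 3, and its rise of 6.26 was larger than in wild type (1.47, but 0.79 and not called without wild-type replicate 2). Rgs10, a regulator of G protein signalling, had 201, 215, 191 and 206 RPM at day 9 against 1.91, 1.30, 2.08 and 5.88 RPM at day 3. Fut4, a fucosyltransferase, had 93.8, 109, 98.8 and 98.1 RPM at day 9 against 2.30, 0, 0 and 0.588 RPM at day 3. Neither differed between the genotypes by the test. Dpep3, a membrane dipeptidase of meiotic germ cells, and Ly6k, a partner of TEX101, were listed at 0 in all knockout libraries of day 3 and averaged 70.5 ± 22.5 and 62.5 ± 20.8 RPM at day 9 (SD, n = 4), beside 87.6 ± 6.69 and 123 ± 1.34 RPM in wild type at day 9 (SD, n = 2). Car7, a carbonic anhydrase, rose by 5.87.

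The largest falls were led by Col3a1, a fibrillar collagen, at 4.22, 0, 0 and 0.773 RPM in the knockout at day 9 and 70.0, 77.6, 105 and 76.4 RPM at day 3 (-5.56, adjusted p = 5.6e-12). It is a fibroblast gene. Of 11 fibroblast and feeder markers tested 6 fell and 3 rose, where 8.37% and 25.6% of all genes did; with median centring 7 fell and 2 rose, and with quantile normalization 6 fell and 1 rose. The summed level of the list was 352 to 476 RPM in the knockout at day 9 and 759 to 848 RPM at day 3, most of it from Fn1, at 315 RPM on average in the knockout at day 9 and 506 RPM at day 3. Lum was at 0 in all 8 libraries and Thy1 in those of day 3. In these bulk libraries, fewer cells of a type and less RNA per cell cannot be told apart, and the part of feeder RNA in the falls was not tested. Hmgn5, an X-linked nucleosome binding protein, was at 13.3, 18.7, 13.1 and 18.5 RPM in the knockout at day 9 and 345, 403, 309.6 and 353 RPM at day 3, a fall of 4.4 on the log2 scale with -4.70 in wild type. Morc1, a chromatin protein that represses transposons in male germ cells, was at 4.54, 9.09, 2.62 and 7.73 RPM against 98.7, 97.1, 107 and 119 RPM.

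The other named falls were Hpgd, which breaks down prostaglandins (-4.46), Lck, a kinase best known from T cells (-4.41), Enpp2, which makes lysophosphatidic acid (-4.33), the glutathione transferase Gstm3 (-4.25), Dennd1c (-4.20), the fucosyltransferase Fut9 (-4.09), the phospholipase Pla2g4e (-4.01), the actin bundler Lcp1 (-3.94) and the tight junction protein Tjp3 (-3.82). Of the 12 named falls, a difference between the genotypes was called for Gstm3 and Lcp1, both with the larger fall in wild type (-5.70 and -4.98). Without wild-type replicate 2 these differences were 0.59 and 0.97 and not called.

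Genes of DNA replication and mitosis are set beside these, where 25.6% of all genes rose and 8.37% fell. Of 24 replication genes, 1 rose and 2 fell in the knockout, with a median of -0.30 beside 0.27 over all genes and -0.64 in wild type. Of 22 genes of the mitotic spindle and M phase none rose and 2 fell, with a median of -0.20. With median centring the falls were 6 and 5 and none rose. The members that fell were Tyms and Rrm2, which supply nucleotides (-1.23 and -1.15), the kinase Aurkb (-1.41) and the cyclin Ccnb1 (-1.09), and the riser was Ccne2, a cyclin that meiotic cells also use (1.26). With quantile normalization Ccne2 and Ccnb1 were at 0.21 and -0.93, and without SK3 Rrm2 was at -0.86, and none of these was called. CDK inhibitors and G1 cyclins had 7 of 10 higher and 1 lower. Ccnd2, a D-type cyclin, was at 35, 39.7, 61.5 and 45.6 RPM in the knockout at day 9, against 1.91, 1.63, 0.319 and 0.588 RPM at day 3. Wild type had 10.9 and 7.96 RPM at day 9. Ccnd1 rose by 3.46, and both D-type cyclins rose further than in wild type (differences 2.54 for Ccnd1 and 2.23 for Ccnd2, the second not called without wild-type replicate 2, at 2.16). The inhibitor Cdkn2d, p19INK4d, rose by 2.37, Rb1 by 1.78 and Cdkn2b by 1.59 (0.94 with quantile normalization, which called 4 of the 10 higher), with no difference called for these 3, and Ccnd3 fell (-1.12).

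Genes of glycolysis fell, with 9 of 15 genes lower and none higher, where 8.37% and 25.6% of all genes were. The median was -1.23, against -2.27 in wild type. The change was called higher in the knockout for 9 of the 15, as for 9.20% of all genes, and lower for none. Hk1, the first enzyme of the pathway, was at 9.73, 8.61, 6.54 and 4.64 RPM in the knockout at day 9 and 66.9, 43.4, 71.1 and 50.5 RPM at day 3. Tpi1, Pfkp, Pdk1 and Aldoa fell by 2.50, 1.59, 1.52 and 1.34 on the log2 scale. In threonine, serine and one-carbon metabolism 4 of 12 fell, Tdh and Gcat of threonine breakdown (-3.01 and -1.65) and the serine transferases Shmt1 and Shmt2 (-1.52 and -1.52), and Mthfd1l of the mitochondrial folate cycle rose (2.04).

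Imprinted genes, which are expressed from 1 parental copy in most tissues, rose for 10 of 16 tested and fell for 2. Among all genes 25.6% rose and 8.37% fell. The median of the list was 1.37 in the knockout and 0.18 in wild type. The change of 6 was called higher in the knockout, as for 9.20% of all genes. The growth factor gene Igf2 was at 50.9, 56, 62.8 and 53.3 RPM in the knockout at day 9, against 5.36, 7.82, 2.40 and 4.70 RPM at day 3. Its neighbour H19, a noncoding RNA, was at 311, 132, 263 and 202 RPM against 62.7, 58.3, 63.6 and 57.6 RPM. Igf2 rose in both genotypes with no called difference (0.65), whereas the rise of H19 was larger in the knockout (1.69). Ascl2, Grb10 and Dlk1 rose by 3.31, 3.17 and 2.37, and the 2 that fell were Peg3 and Phlda2 (-1.36 and -1.13); without SK3 Phlda2 was at -0.90 and not called.

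Keratins of simple epithelia were higher in the knockout. Krt8 was at 34.7, 27.8, 30.1 and 23.2 RPM in the knockout at day 9, against 0.765, 0, 0.319 and 1.76 RPM at day 3. Its partner Krt18 was at 99, 82.8, 131 and 74.9 RPM against 2.30, 4.56, 6.39 and 3.53 RPM. In wild type at day 9 they stood at 0.839 and 0.468 RPM for Krt8 and 9.23 and 7.02 RPM for Krt18, and no knockout library of day 9 came down to these levels. The changes in the knockout were 4.22 and 4.27, with differences from wild type of 4.43 and 3.71 (adjusted p = 2.8e-06 and 2.3e-07), while Krt7 fell (-1.87). The summed level of 13 markers of somatic lineages was 50.2 to 90.3 RPM in the knockout at day 9 and 55.7 to 79.3 RPM at day 3, with Krt14 at 0 in all. Afp and Hand1 were called higher (2.33 and 1.76) at knockout day 9 means of 5.78 and 3.76 RPM, Hand1 not with quantile normalization (0.65). The part of such cells in the keratin values was not tested.

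Other genes whose change was higher in the knockout were taken by size under the rule for named genes. They were Tgfbi, a matrix protein (4.51), Ptgr1, which inactivates lipid mediators (3.91), and Lipc, the hepatic lipase (3.81). Ptgr1 was at 291, 344, 231 and 288 RPM in the knockout at day 9 and 5.74, 10.1, 5.75 and 6.46 RPM at day 3, where wild type at day 9 had 26.9 and 26.2 RPM. On the other side stood, after Rad51ap2 and Prdm9, the nuclear receptor Pparg (-5.32), BC051142 (-4.68), the amylase gene Amy1 (-4.54), which has near-identical copies that may share reads, D6Mm5e, named M1ap by RefSeq and known from male meiosis (-4.46), Tc2n (-4.32) and Stk33 (-4.14). Pparg had 1.95, 1.44, 0 and 3.86 RPM in the knockout at day 9 and 1.15, 1.63, 0.958 and 0 RPM at day 3, against 83.9 and 95.1 RPM in wild type at day 9. D6Mm5e had 25.3, 23.9, 15 and 14.7 RPM in the knockout at day 9 and 9.56, 8.47, 7.19 and 5.88 RPM at day 3, against 478 and 474 RPM in wild type at day 9.

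Markers of gonadal somatic cells were low throughout. The summed level of the 10 genes was 20.9 to 38.9 RPM in the knockout at day 9 and 0.326 to 4.70 RPM at day 3, and 23.5 to 33.2 RPM in wild type at day 9. Amh, Nr5a1 and Cyp17a1 were at 0 in all 8 knockout libraries. The 5 that reached the level for testing, Rspo1, Wt1, Sox9, Gata4 and Wnt4, were all called higher, at knockout day 9 means of 2.98 to 10.8 RPM; with quantile normalization 2 were, and without SK1 replicate 1 Gata4 was at 1.07 and not called. Blood and endothelial markers summed to 66.1 to 108 RPM in the knockout at day 9 and 121 to 206 RPM at day 3, of which Pecam1, which PGCs also express, made 89.6 RPM on average at day 9 and 154 RPM at day 3, with Ptprc, Gata1 and Emcn at 0. Of the germ cell's own markers, Dppa3 was at 237 to 459.8 RPM in the knockout at day 9 and 1292 to 1464 RPM at day 3, and Ddx4 at 270.3 to 304 RPM and 33.6 to 48.4 RPM.

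More genes were called in the later steps than in the first. Between day 3 and day 5 the knockout had 301 genes higher (2.47%) and 124 lower (1.02%), which is 3.48% of those tested. Between day 5 and day 7 it had 1208 higher (9.90%) and 185 lower (1.52%), or 11.4%. Between day 7 and day 9 it had 1214 higher (9.95%) and 343 lower (2.81%), or 12.8%. With median centring the splits of the later steps were 941 and 313, and 797 and 621. Of the 3125 genes higher at day 9 than at day 3, 247 were called in the first step, 1146 in the second and 1115 in the third, and 1195 in no single step. Of the 1022 that were lower, 68, 159 and 263 were called in the steps and 614 in none.

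The leading genes of each step were taken by the rule for named genes. The first step was led by Frmpd1 (2.86), the heparin-binding growth factor Mdk (2.83) and Id1 (2.73) upward, and by Col3a1, Hpgd and Lefty2 downward. Id1 stood at 14.2, 4.89, 7.03 and 2.35 RPM at day 3, 65.6, 36.1, 48.6 and 37.1 RPM at day 5, 206, 172, 239 and 153 RPM at day 7 and 748, 695, 803 and 752 RPM at day 9 in the knockout. Cyp26a1 stood at 21.4, 9.46, 10.1 and 9.95 RPM at day 5, 152, 124, 154 and 105 RPM at day 7 and 503, 499.5, 591 and 522 RPM at day 9. Stra8 stood at 9.38, 1.72, 5.83 and 11 RPM at day 5, 33.3, 30, 29.3 and 204 RPM at day 7 and 105, 122, 77.9 and 483 RPM at day 9. The means of all 3 were higher at each later day, and SK3 had the highest Stra8 value at day 5, day 7 and day 9. The second step was led by Tgfb1i1 (4.07), Rgs10 (3.93) and Ptgr1 (3.70) upward, with Msx2, Hmgn5 and Morc1 the largest falls.

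The third step brought Sohlh1, Dpep3 and Taf7l. Taf7l stood at 3.13, 0, 2.92 and 0.343 RPM at day 5, 44.4, 18.8, 28.9 and 13 RPM at day 7 and 350.4, 285, 314 and 253 RPM at day 9. The largest falls of this step were Klhl2 (-2.74), Efcab10 (-2.53) and Tdgf1 (-2.35). Klhl2 differed within the group at day 9, with 0, 19.6, 0 and 16.2 RPM. Retinoic acid targets as a list had a median change from day 3 of 0.52 at day 5, 2.66 at day 7 and 4.43 at day 9 in the knockout. In wild type the medians were 0.77, 2.84 and 2.30 on these days, so that the genotypes lay closer together at days 5 and 7 than at day 9; this was not tested. The medians of the axis and synaptonemal complex list were 0.79, 2.37 and 3.49 in the knockout and 1.21, 3.29 and 5.17 in wild type.

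**Figure D4:**
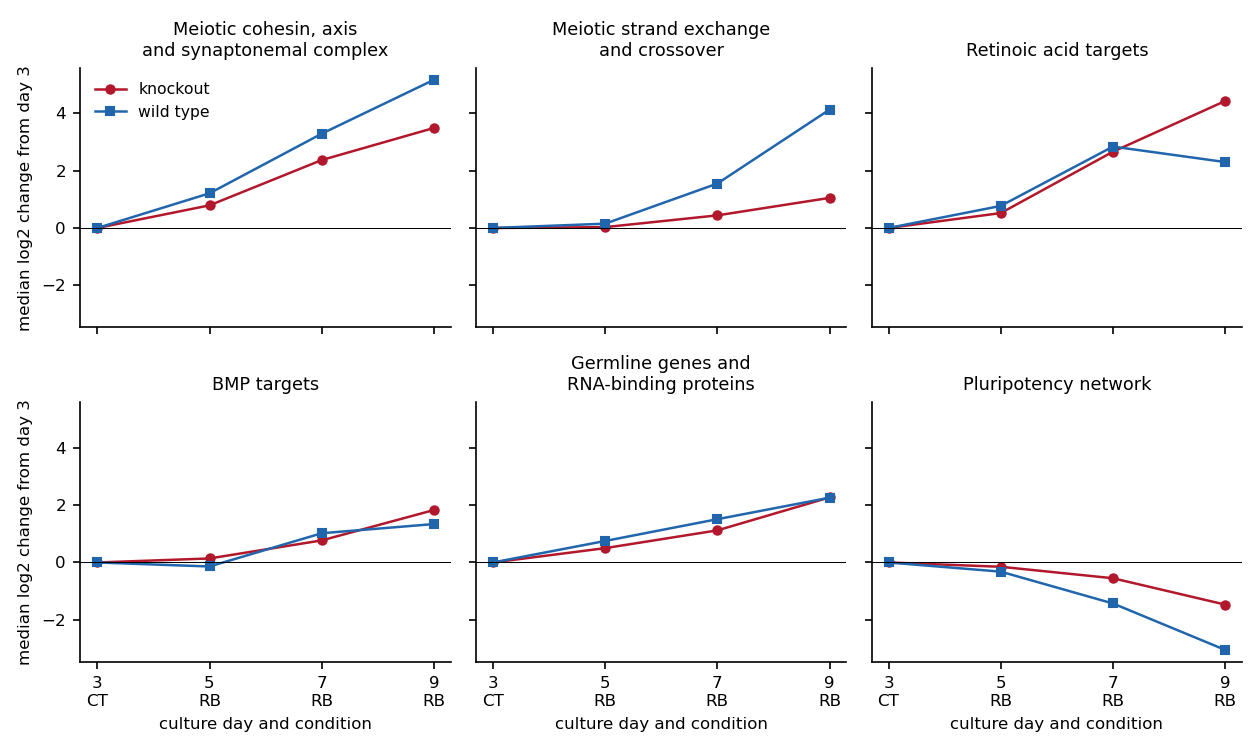
Lines give the median over each list's tested genes of the log2 change from CT day 3, on the log2(RPM + 1) scale, at RB days 5, 7 and 9 in the knockout (red circles, 4 pairs) and wild type (blue squares, 2 pairs). The axis and strand exchange lists stay below wild type from day 5 on, retinoic acid targets part at day 9 (4.43 in the knockout, 2.30 in wild type), and pluripotency genes fall less in the knockout.

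The line on the 129S1 and C57BL/6 background, with the same reporters and no Stra8 deletion in its labels, was cultured to day 9 in CT as well as in RB. It has 2 libraries per condition and another strain background, and its values stand beside those of the knockout without a test. Over the 3125 genes called higher in the knockout, the median log2 change from CT day 3 was 1.69 in RB day 9 and 0.28 in CT day 9 of that line, and 73.4% were past a 2-fold rise in RB day 9 against 11.6% in CT day 9. Over the 1022 called lower the medians were -1.51 and -0.24, with 74% and 8.71% past a 2-fold fall. For comparison, the medians over all genes tested were 0.27 in RB day 9 and 0.01 in CT day 9 of that line. The share of all genes past a 2-fold change in that line was not computed. Rec8 had 217 and 215 RPM in RB day 9 of that line, 16.7 and 14.9 RPM in CT day 9 and 12.2 and 10.3 RPM in CT day 3. Id1 had 290.3 and 339 RPM in RB day 9, 4.82 and 3.56 RPM in CT day 9 and 6.25 and 6.63 RPM in CT day 3. In both genes RB day 9 stood far above CT day 9.

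Dazl was different, with 2065 and 2268 RPM in RB day 9, 207 and 264 RPM in CT day 9 and 41.8 and 43.8 RPM in CT day 3, so that it was higher at day 9 than at day 3 in CT too. Dnmt3l had 2.38 and 0.537 RPM in RB day 9, 6.43 and 7.44 RPM in CT day 9 and 0.658 and 0 RPM in CT day 3. In that line it was higher in CT day 9 than in RB day 9, in both libraries. Krt18 had 52.4 and 26 RPM in RB day 9, 19 and 12.9 RPM in CT day 9 and 7.89 and 9.21 RPM in CT day 3.

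**Figure D5:**
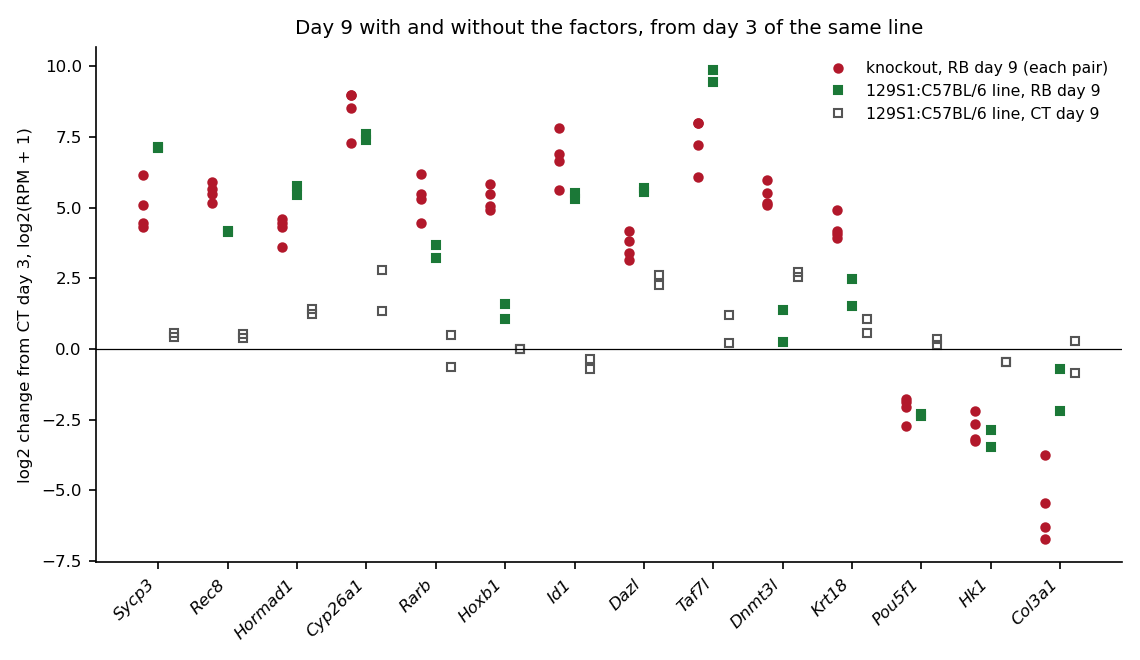
For 14 genes, red circles give the log2(RPM + 1) change from CT day 3 to RB day 9 in each of the 4 knockout pairs, and squares the change of each of 2 libraries of the 129S1:C57BL/6 line from that line's CT day 3 mean, in RB day 9 (filled green) and CT day 9 (open grey). Open squares of Rec8, Sycp3, Rarb, Hoxb1 and Id1 lie near 0 or below it, while those of Dazl and Dnmt3l lie above 2.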

How the data were processed

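The libraries are 3′-end RNA-seq (SC3-seq) amplified from 1 ng of RNA and sequenced on a NextSeq 500, per the labels. Per the submitters' processing notes, the mm10 build was used with TopHat 1.4.1, Bowtie 1.0.1, Cufflinks 2.2.0 and cutadapt 1.11, without the role of each tool. The authors deposited 1 table of RPM, a signal per gene scaled to library size; values under 0.001 were read as 0.

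From these values log2(RPM + 1) was computed, and genes with at least 5 RPM in at least 2 of the 24 libraries of the Stra8 experiment were tested with limma 3.58.1 in R 4.3.3. The model had culture (line and replicate) as a block, 1 effect per genotype and day, 12 residual degrees of freedom, Benjamini-Hochberg adjustment over all 12206 genes. A gene was called at an adjusted p below 0.05 and an absolute log2 change of at least 1, and all log2 changes are on this scale, which understates changes of low genes. Pairing rests on the line. Deviations from the group means correlated at -0.063 to 0.072 between day 3 and day 9 of the same culture. For SK2, SK1 replicate 2 and SK3, the highest correlation with day 9 of another knockout culture was larger (0.221, 0.101 and 0.058). The values within these cultures were -0.063, 0.016 and 0.041. For SK1 replicate 1 the value within the culture was the larger. In wild type, with 2 libraries per day, the deviations mirror each other, so that the 2 values (0.034 and -0.034) differ in sign by construction. The comparison there cannot check the pairing. Nothing in the labels says that replicates came from separate cultures, so p-values measure the spread between these libraries, which may in part be technical.

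Depth was 1.08 to 15.62 M reads over the 24 libraries, deduced from the smallest steps of the values. With 87.9% to 93.7% of low values whole to within 0.05 reads, below the 95% required for a count test, the values were not turned back into counts. Motifs were searched in RefSeq promoter windows (GRCm38.p6), which matched 9531 of the 12206 genes by name or ID. Summaries and figures used Python 3.11.15, pandas 2.3.3, numpy 2.4.6 and matplotlib 3.10.9.

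The members, gene lists and tests were chosen with earlier results of these data known. Named genes are the 12 with the largest called rise and the 12 with the largest called fall in the knockout, within the limits below. Added are the 8 with the largest difference from wild type each way, and the 3 with the largest change each way in each step. Up to 5 called members of each list with the largest change were also named, plus members not called. The first 3 sets needed a mean of at least 20 RPM. The 12 rises and 12 falls also needed no overlap between the libraries of the days and the same sign in every pair. Genes with placeholder names (Gm, Rik or LOC) were not taken into them, so Gm1564 is absent although its rise exceeded that of Id1. Hormad1, Dmc1, Hfm1, Mnd1, Ddx4, Hey1, Klf4, Lin28a, Tet1, Ccnd3, Peg3, Phlda2 and Pecam1 were chosen after their values were seen. Alternatives were other pseudocounts, filters and scalings, leaving out each culture, and fits with other blocks. A few list members are not reported here. Libraries of embryos and of other conditions were not analysed here.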

Additional observations from a re-analysis of the deposited data

Results flagged for a closer look

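The change between the days differed between the genotypes, by the test of the difference itself, for 1921 genes. On the log2 scale the change in the knockout less that in wild type was 4.52 for Dnmt3l, 4.51 for Tgfbi, 4.43 for Krt8, 4.25 for Hoxb1, 3.91 for Ptgr1, 3.90 for Sohlh1, 3.81 for Lipc and 3.71 for Krt18. In the other direction it was -7.17 for Rad51ap2, -5.32 for Pparg, -5.04 for Prdm9, -4.68 for BC051142, -4.54 for Amy1, -4.46 for D6Mm5e, -4.32 for Tc2n and -4.14 for Stk33. Hoxb1 and Sohlh1 were listed at 0 in all knockout libraries of day 3, so that the size of their values depends on the pseudocount.

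A library stood apart from the other 3 of its group, by the gap to its neighbour as a share of the range, for 10 of 258 values checked, where chance flags about 5% of groups. In the knockout at day 9, SK3 was low for Ccne2 (1.55 RPM), Dmc1 (17.0 RPM) and Phlda2 (51.8 RPM), SK2 was low for Shmt1 (36.6 RPM), SK1 replicate 1 was high for Rb1 (99.0 RPM), and SK1 replicate 2 was high for Psmc3ip (78.9 RPM). At day 3, SK1 replicate 2 was low for Bmpr1a (56.4 RPM) and Bmpr2 (1.30 RPM), and SK2 was low for Pdk1 (133 RPM) and high for Tfap2c (183 RPM).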

How the results depend on the processing

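The count of 4147 genes in the knockout stayed within 1.5 times under 0.5 and 3 RPM as pseudocount (4300 and 3372), no filter on low values (4954), median centring (4066), quantile normalization (3844), SK1 averaged to 1 culture (4157), a replicate block on the 8 knockout libraries alone (4148, which gives no value for wild type) and no replicate block (4142). Genes with at least 20 RPM in at least 4 libraries gave 2110 calls, with fewer genes tested, and in the same way 3217 in wild type and 218, 593 and 646 in the steps to days 5, 7 and 9. With a pseudocount of 3 RPM the steps gave 207, 732 and 951. The genes behind the count changed more than the count itself. Of the 4147 knockout calls, 3300 were also made in the same direction with median centring and 2933 with quantile normalization. Leaving out each culture gave 4087 to 4176 calls in the knockout, 4447 to 5400 in wild type, 336 to 424, 1268 to 1444 and 1496 to 1572 in the steps, and 1024 to 1819 for the difference between the genotypes. The 1024 is the value without wild-type replicate 2, which leaves 1 wild-type culture, assumed to vary like the others; the difference had 1814 calls without the replicate block. A count test on recovered reads was not run, since too few values came out whole. The number of wild-type cultures limits the difference, and depth limits genes near 0.479 to 2.318 RPM, the level of 3 reads. Of the list medians in the knockout, those of the stress and somatic lineage lists changed sign with median centring, and so did the median over all genes. Of the 71 differences between the genotypes named, 24 lost their call without wild-type replicate 2. Changes that turned their sign were, with quantile normalization, those of Amy1 (-0.36), Mga (-0.05), Msh5 (-0.53), Pparg (-0.63), Prdm9 (-0.15), Rad51ap2 (-0.53) and Stk33 (-0.24), and with median centring those of Mga (-0.18), Rad51ap2 (-0.25), Syce2 (-0.29) and Trip13 (-0.03). Over the fits without 1 culture the values ran from -0.16 to 0.10 for Fancd2, -0.14 to 0.17 for Hoxc8, -0.21 to 0.88 for Pparg, -0.16 to 0.00 for Psmc3ip and -0.23 to 0.40 for Rad51ap2, and Hoxc8 turned with SK1 averaged (0.01); of all these, Prdm9 alone was called. The causes were not tested.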

Other observations

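PRC1.6 is a Polycomb complex with E2F6, MGA and MAX that holds meiotic genes silent in embryonic stem cells. Of 12 members, Hdac1 fell (-1.02, but -0.90 and not called without SK2) and none rose, where 8.37% and 25.6% of all genes did. The median log2 change was -0.02 in the knockout, and a difference between the genotypes was called for no member. Mga was at 45.8 to 63.4 RPM in the knockout at day 9 and 39 to 58.8 RPM at day 3 (0.19), and E2f6 averaged 14.2 ± 0.945 RPM and 16.9 ± 4.86 RPM (SD, n = 4 each; -0.20).

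Of 15 p53 and cell death genes, Bbc3, a killer of the BCL2 family also called PUMA, rose (1.37, but 0.99 and not called with median centring) and Trp53 fell (-1.26). The stress list had 2 of 8 higher and 1 lower, where 25.6% and 8.37% of all genes were: Trib3 and Ddit3 (1.25 and 1.15) were higher and Egr1 was lower (-1.05); with median centring Trib3 and Ddit3 were at 0.88 and 0.78 and not called. Without SK3, Ddit3 and Egr1 were at 0.85 and -0.79 and not called. Antigen presentation and interferon genes had 5 of 10 higher and 1 lower, beside the same 25.6% and 8.37% of all genes. Their median was 1.55 in the knockout and 1.75 in wild type. The change was called lower in the knockout than in wild type for 2 of the 10 and higher for 1, where 6.54% and 9.20% of all genes were so called. Several of these genes have near-identical copies that may share reads.

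On the X chromosome, 188 of 487 genes tested, or 38.6%, were higher in the knockout at day 9, with a median log2 change of 0.53 in the knockout and 0.63 in wild type. On the other chromosomes 20.8% to 29% were higher. Of X-linked genes named above, Taf7l, Nxf2 and Tex11 rose and Hmgn5 fell. No test of the share was made.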
